A study of Mus musculus with 2 samples.

Results

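Type I interferon-stimulated genes are the genes that a cell switches on after interferon alpha or beta has bound its receptor. The module described here held 39 gene symbols, chosen by name from the pathway and matched to the gene symbols of the count matrices. Of these, 37 matched among the 32285 genes counted, and Mx1 and Mx2 were not analysed here. Single-cell RNA-seq was performed on live mononuclear cells sorted from the limb muscle of mice given DMSO, the solvent, or MVC (Maraviroc, a small-molecule drug). There was 1 library for each treatment, and the sources used here do not give how many mice each one holds. The mice of both groups were aged C57BL/6 animals in the study's description of its Maraviroc regime, so no young or untreated muscle stands beside them.

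In this pathway, cytosolic sensors of foreign or misplaced nucleic acid induce interferon, which binds a receptor on the same or a neighbouring cell. Receptor kinases then activate a transcription factor complex that includes STAT2 and IRF9 and binds the interferon-stimulated response element (ISRE) in target promoters. The products block viral RNA and translation, mark proteins for ISGylation, or feed back on the pathway as sensors, transcription factors and inhibitors. Nearly all nucleated cells carry the receptor, so the same genes can be read in the vessels, connective tissue, nerves and immune cells of a muscle.

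After removal of cells with fewer than 500 detected genes or more than 10% mitochondrial UMIs, 5437 DMSO and 5454 MVC cells remained. The kept cells held 38748234 and 35518029 UMIs, a UMI being 1 captured RNA molecule, with a median of 5802 and 5195 per cell. Only 8 kept cell barcodes occurred in both libraries. Classes were named from marker genes after clustering without the module and its pathway, and 11 classes with at least 50 cells in each library were compared. The largest were endothelial-like (EC-like, 2231 DMSO and 1924 MVC cells), fibro-adipogenic progenitor-like (FAP-like, 1196 and 1452) and tenocyte-like cells (466 and 536). T/NK-like cells made up 3.31% of the DMSO and 0.935% of the MVC library, so the makeup of the libraries differed. Because each group was 1 library, no test between treatments was possible, and all intervals are 95% counting intervals that leave out variation between mice and between cells.

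The ISRE core was found in the promoters of some members of the module and not of others. RefSeq windows of 300 bases (250 before and 50 after a transcription start, build GRCm38.p6) were found for 30 of the 37 genes and searched on both strands for the ISRE core GAAANNGAAA. The core was present in 18 of 30 member genes (60%) and in 1079 of 27025 genes overall (3.99%). The STAT dimer motif TTCNNNGAA, which reads the same on both strands, was present in 6 of 30 members (20%) and in 9.55% of all genes. A letter match describes the window and is not evidence of binding. Both Ifit2 windows, the Oasl1 window and the Herc6 window lacked the core. In EC-like cells the 17 members with the core and at least 50 UMIs had a median MVC over DMSO ratio of 1.86, and the 12 without it had 1.85, so carrying these letters did not separate the members. The windows below belong to members whose values are given in the following paragraphs, and capitals mark the ISRE core in either orientation. They lie at chr19:34640639-34640938 for Ifit1, chr19:34583279-34583578 for Ifit3, chr19:34607707-34608006 for Ifit3b and chr3:142620413-142620712 for Gbp2, all on the plus strand. Those of Isg15 (chr4:156200769-156201068) and Rsad2 (chr12:26456403-26456702) are on the minus strand. Each is written 5′ to 3′ along its gene.
Ifit1: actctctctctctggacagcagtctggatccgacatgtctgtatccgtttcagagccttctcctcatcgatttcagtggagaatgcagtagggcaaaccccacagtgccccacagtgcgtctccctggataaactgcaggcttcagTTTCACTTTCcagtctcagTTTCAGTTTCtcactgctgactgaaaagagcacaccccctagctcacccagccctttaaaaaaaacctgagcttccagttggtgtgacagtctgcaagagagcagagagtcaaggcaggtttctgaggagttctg
Ifit3: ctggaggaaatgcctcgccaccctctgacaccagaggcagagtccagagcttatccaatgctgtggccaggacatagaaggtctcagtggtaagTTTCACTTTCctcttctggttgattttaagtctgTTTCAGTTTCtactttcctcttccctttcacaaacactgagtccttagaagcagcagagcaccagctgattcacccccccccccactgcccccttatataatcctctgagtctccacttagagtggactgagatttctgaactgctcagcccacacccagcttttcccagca
Ifit3b: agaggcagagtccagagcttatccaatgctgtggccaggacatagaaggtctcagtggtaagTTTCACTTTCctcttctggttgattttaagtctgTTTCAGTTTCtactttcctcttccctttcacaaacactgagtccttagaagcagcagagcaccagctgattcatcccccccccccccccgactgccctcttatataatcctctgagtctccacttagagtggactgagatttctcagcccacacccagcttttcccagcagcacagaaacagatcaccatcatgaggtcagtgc
Gbp2: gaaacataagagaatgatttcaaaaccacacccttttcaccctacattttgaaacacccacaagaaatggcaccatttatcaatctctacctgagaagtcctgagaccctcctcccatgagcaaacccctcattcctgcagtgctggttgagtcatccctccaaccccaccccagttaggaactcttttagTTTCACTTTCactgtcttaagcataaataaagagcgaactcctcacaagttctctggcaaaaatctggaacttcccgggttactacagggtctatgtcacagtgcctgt
Isg15: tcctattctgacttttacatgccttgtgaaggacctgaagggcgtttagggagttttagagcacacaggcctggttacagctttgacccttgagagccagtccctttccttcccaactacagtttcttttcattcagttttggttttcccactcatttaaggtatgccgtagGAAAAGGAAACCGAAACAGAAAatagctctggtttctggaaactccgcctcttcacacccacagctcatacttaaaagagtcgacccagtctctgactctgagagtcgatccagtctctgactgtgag
Rsad2: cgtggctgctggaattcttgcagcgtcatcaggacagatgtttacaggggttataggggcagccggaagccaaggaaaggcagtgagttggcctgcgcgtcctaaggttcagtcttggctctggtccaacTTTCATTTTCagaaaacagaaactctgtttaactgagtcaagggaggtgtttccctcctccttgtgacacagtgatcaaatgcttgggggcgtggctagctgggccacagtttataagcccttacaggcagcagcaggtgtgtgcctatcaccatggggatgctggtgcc
The Ifit1 window held 2 cores, starting 104 and 85 bases before the transcription start. Isg15 held 3 that overlap, at 78, 72 and 66 bases before the start, and Gbp2 held 1 at 59. The Ifit3 and Ifit3b windows carried the same pair of cores at different distances, 156 and 122 bases before the start in Ifit3 and 188 and 154 in Ifit3b.

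By position, the members were spread over 13 chromosomes but several stood in family clusters in the GENCODE annotation of GRCm38, and all were annotated as protein-coding. The 4 Ifit genes lay within 99316 bases on chromosome 19 (34550694 to 34650009). Chromosome 5 carried the 5 OAS genes, Gbp2, Gbp3 and Gbp7 stood close together on chromosome 3, and Rsad2 and its neighbour Cmpk2 were on chromosome 12. Close relatives share transcript sequence, which limits what a short read can tell apart. Of all 31-base words in Ifit3 transcripts, 61.8% also occurred in Ifit3b, and 68.7% of the words of Oas1a occurred in Oas1g. The counts of Ifit3, Ifit3b and Oas1a are therefore uncertain as single genes, whereas Ifit2, Oas2, Usp18, Irf7, Cmpk2, Ifi35 and Bst2 shared no word with another gene.

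The question was whether the interferon programme differed between muscle from MVC- and DMSO-treated mice, and in which cells. Summed over the 37 genes, the module stood at 1182 CPM (UMIs of the gene or list scaled to 1000000 UMIs in all) in the DMSO library (45781 UMIs, 1171 to 1192) and at 1595 CPM in the MVC library (56641 UMIs, 1582 to 1608). The ratio was 1.35 (1.33 to 1.37). Giving both libraries the class makeup of the DMSO library raised the ratio to 1.44, and weighting the 11 classes equally gave 1.40, so the ratio stayed above 1 under both weightings. All 36 members with at least 50 UMIs over both libraries had a ratio above 1, against 58.9% of all genes. For 31 members the interval left out 1. The share of all genes with such an interval is not given here, so this count is not set against a background. A gene was counted as higher or lower when its CPM differed by at least 1.5-fold and its counting interval left out 1. By that rule 15 of 36 members were higher and 0 were lower in MVC, against 7.09% of 16805 genes higher and 5.18% lower. The median log2 ratio was 0.52 over the members and 0.06 over all genes.

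Among the members with most UMIs, Parp14, a mono-ADP-ribosyltransferase, stood at 130 CPM in DMSO and 165 in MVC, a ratio of 1.27 (1.23 to 1.32). Trim30a, a tripartite-motif protein that restrains inflammatory signalling, went from 93.3 to 123 CPM (1.32, 1.27 to 1.38). Gbp2, a guanylate-binding GTPase that attacks pathogen vacuoles, went from 70.1 to 119.6 CPM (1.71, 1.63 to 1.79). These abundant members were higher in MVC by a moderate ratio. Herc6, the mouse ligase for ISG15, went from 71.2 to 113 CPM (1.59, 1.51 to 1.66). Isg15, the ubiquitin-like modifier itself, differed less, at 79.5 and 92.9 CPM (1.17, 1.11 to 1.23).

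The largest ratios over all cells belonged to genes of low abundance. Ifit3b had 30 UMIs in DMSO and 104 in MVC (3.78, 2.5 to 5.88), and its log2 ratio went from 1.92 to 2.67 without its 3 leading cells. Cmpk2, a mitochondrial nucleotide kinase, had 109 and 256 (2.56, 2.04 to 3.24). Oas1a, a synthetase of the oligoadenylate that activates RNase L, had 56 and 121 (2.36, 1.70 to 3.30). All 3 were above 2-fold, as was Ifi44 with 119 and 239 UMIs (2.19, 1.75 to 2.75). Ifit1, which binds viral RNA lacking the cap methylation of the host, had 807 and 1478 UMIs, or 20.8 and 41.6 CPM (2.0, 1.83 to 2.18). At the other end were 5 members near a ratio of 1. They were Oasl1, a translational inhibitor of Irf7 (1.01, 0.95 to 1.08), and Zbp1, a sensor of Z-form nucleic acid (1.01, 0.806 to 1.27). Igtp, an immunity-related GTPase, was at 1.06 (0.949 to 1.19), Irf9 at 1.08 (1.0 to 1.17) and Ifi35 at 1.12 (1.03 to 1.21). The plot of ratios by member places these in order beside the same genes in EC-like cells.

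**Figure D1:**
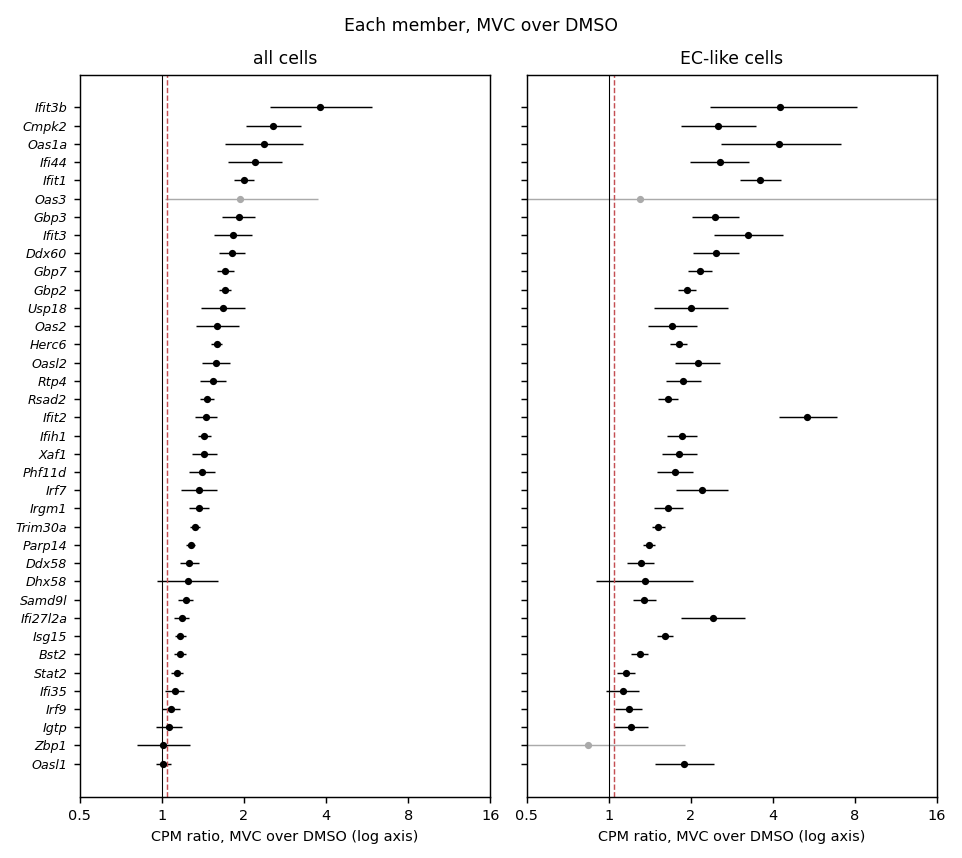
CPM ratio of each of the 37 members, MVC over DMSO (log axis), over all cells (left) and in EC-like cells (right). Points are 1 library against 1 library, bars are 95% counting intervals (some run past the axis), grey marks genes with under 50 UMIs, and the dashed red line is the median of all genes, 1.04 in both panels. Nearly all points lie right of the line, and Ifit2, Ifit3b and Oas1a lie farthest right in EC-like cells.

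Among the 11 classes compared, the module was highest in macrophage-like and EC-like cells in both libraries. It was lowest in MuSC-like cells (muscle stem cells), whose MVC interval overlapped that of B cell-like cells. In DMSO the order began with macrophage-like cells at 3450 CPM (3368 to 3533) and EC-like cells at 1967 CPM (1940 to 1994). Lymphatic EC-like (1155 CPM) and Schwann-like cells (1097 CPM) followed with overlapping intervals, then T/NK-like (816) and pericyte-like cells (762), whose intervals also overlapped. FAP-like (646), perineurial-like (595), B cell-like (569) and tenocyte-like cells (559) came next, each overlapping its neighbour, and MuSC-like cells closed the order at 412 CPM. In MVC the summed level was higher in all 11 classes, but the interval of the ratio left out 1 in 10, the exception being Schwann-like cells (1097 and 1156 CPM, 1.05, 0.945 to 1.17). As the mean of each cell's own share, Schwann-like cells turned to a log2 ratio of -0.0232. With classes from each cell's own markers, macrophage-like cells turned to -0.24. Named classes below the cell minimum were left out of this order. Of these, myofibre-like cells (13 and 23) stood at 32.5 and 242 CPM, from 2 and 20 UMIs, and neutrophil-like cells (61 and 34) at 615 and 698. Outside the named classes, the unnamed mural cluster of 117 DMSO and 79 MVC cells stood at 2097 and 2045 CPM (0.975, 0.903 to 1.05), above EC-like cells in DMSO and not higher in MVC. The unnamed low-UMI cluster of 69 and 201 cells stood at 1820 and 3305 CPM (1.82, 1.57 to 2.11). Its MVC interval (3095 to 3526) overlapped that of EC-like cells (3111 to 3190).

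**Figure D2:**
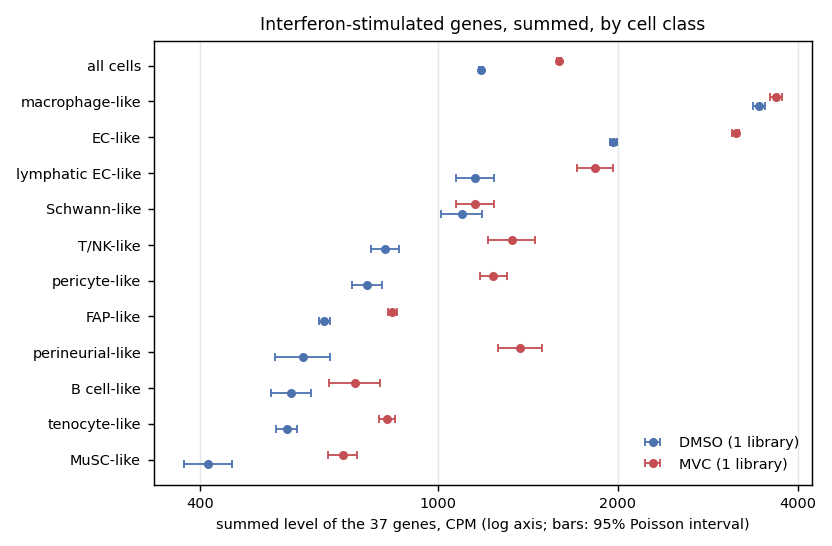
Summed CPM (log axis) of the 37 members in each cell class and over all cells, blue for the DMSO and red for the MVC library, with 95% Poisson intervals. Macrophage-like cells are highest in both, and the MVC point lies right of the DMSO point in every class, only slightly in macrophage-like and Schwann-like cells.

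EC-like cells, which line the capillaries, arteries and veins of muscle, carried the largest share of module UMIs, 20373 in DMSO and 25100 in MVC. Their summed level was 1967 CPM in DMSO and 3150 CPM in MVC, a ratio of 1.60 (1.57 to 1.63). All 35 members with enough UMIs had ratios above 1, against 57.5% of all genes. An interval leaving out 1 was found for 33, a count without a share of all genes beside it. Of the 35, 26 were higher by the 1.5-fold rule and 0 lower, where 8.98% of 11558 genes were higher and 3.43% lower. The median log2 ratio was 0.89 for the members and 0.06 for all genes.

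The Ifit family differed most in these cells, with a summed level of 34.0 CPM in DMSO and 135 in MVC (3.97, 3.51 to 4.49). Ifit2, an RNA-binding inhibitor of translation, had 85 and 349 UMIs, or 8.21 and 43.8 CPM (5.34, 4.2 to 6.85). Ifit3b had 15 and 49 UMIs (4.25, 2.34 to 8.15). Ifit1 had 183 and 504, or 17.7 and 63.3 CPM (3.58, 3.02 to 4.26). Each of these was several-fold higher in the MVC library. The 3 cells with most Ifit2 held 12.9% of its UMIs in DMSO and 17.2% in MVC, and without them the ratio was 5.08 (3.92 to 6.65).

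Of the OAS family, 4 of 4 members with enough UMIs were higher, Oas1a most (22 and 71 UMIs, 4.2, 2.57 to 7.11). The GBP and IRG GTPases were higher in 4 of 5, with Gbp2 at 98.7 and 191 CPM (1.94, 1.79 to 2.10), Gbp7 at 59.6 and 129 (2.16, 1.95 to 2.39) and Igtp the exception at 1.21 (1.04 to 1.40). The ISG15 conjugation genes were higher in 3 of 3. Isg15 stood at 151 and 244 CPM (1.61, 1.51 to 1.72) and Usp18, the protease that removes ISG15 and shuts off the receptor, at 6.66 and 13.3 CPM (2.0, 1.46 to 2.75). Among the sensors, Ddx60 (2.47, 2.03 to 3.01) and Ifih1, the RNA helicase MDA5 (1.86, 1.64 to 2.10), passed the rule, whereas Ddx58, the helicase RIG-I, was at 1.31 (1.16 to 1.47). Viperin, the antiviral radical enzyme coded by Rsad2, was at 93.9 and 155 CPM (1.64, 1.51 to 1.79).

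The transcription factors of the pathway moved unequally. Irf7, the factor that amplifies the response, had 136 and 230 UMIs, or 13.1 and 28.9 CPM (2.20, 1.77 to 2.74). Stat2, at 144 and 166 CPM (1.16, 1.07 to 1.25), and Irf9, at 59.3 and 70.0 (1.18, 1.05 to 1.33), were among the 3 lowest members in EC-like cells with Ifi35 (43.2 and 48.6 CPM, 1.12, 0.978 to 1.29). Parp14, the most counted member here, stood at 289 and 406 CPM (1.40, 1.33 to 1.47).

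The difference was found in each of the 5 EC-like clusters. The ratio was 1.65 in the cluster led by Depp1 and Zfp366, 2.12 in that led by Cldn5 and Slc1a1, and 1.32 in that led by Ablim3 and Rassf9. In the cluster with the arterial genes Bmx and Gja5 it was 1.43, and in that with the venular genes Selp and Ackr1 it was 1.58. The Cldn5 cluster held 703 DMSO and 339 MVC cells, so the makeup of the class also differed. Within EC-like cells the summed level of the 9 EC marker genes was lower in MVC (20200 and 14874 CPM, 0.736) and that of the 9 FAP markers was higher (89.5 and 287 CPM, 3.20), as was that of the 9 macrophage markers (20.2 and 30.9 CPM, 1.53). Haemoglobin UMIs went from 1968 to 1026 CPM. In FAP-like cells themselves the module stood at 646 and 839 CPM, below EC-like cells, and in macrophage-like cells the macrophage markers stood at 8423 and 8441 CPM. The part of these shifts in the result was not tested.

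Counted per cell at a fixed depth of 2000 UMIs, the whole distribution of EC-like cells lay higher in MVC. The median was 3 module UMIs among 1958 DMSO cells and 5 among 1475 MVC cells, and the 90th percentile was 8 and 13. Cells shallower than this were left out, 273 in DMSO and 449 in MVC. At least 1 module UMI was found in 90.8% (89.4 to 92.0) of DMSO and 96.6% (95.6 to 97.5) of MVC cells, a difference of 5.85 points (4.26 to 7.44). At least 10 were found in 6.33% and 19.3%, a difference of 12.9 points (10.7 to 15.2). Unthinned, the shares with at least 10 were 30.1% and 43.1%. Ifit1 was detected in 2.20% and 8.75% of thinned EC-like cells and in 0.522% and 1.20% of FAP-like cells, both classes at the same depth. No class here is known to lack Ifit1, so no background share from free RNA was set. At the same depth the lowest shares were in B cell-like cells (0 of 200 DMSO and 0 of 81 MVC cells) and MuSC-like cells (0 of 141 and 2 of 247). The part of free RNA was not tested. With all UMIs Ifit1 was detected in 4.39% and 13.0% of EC-like cells.

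**Figure D3:**
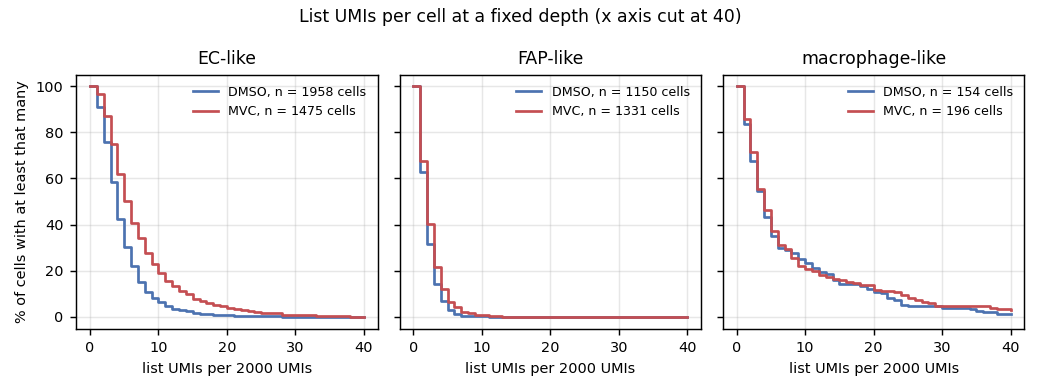
Share of cells (y axis, percent) with at least the number of module UMIs on the x axis, each cell thinned to 2000 UMIs, for EC-like, FAP-like and macrophage-like cells, blue for DMSO and red for MVC. The EC-like curves separate over the whole range, the FAP-like curves slightly, and the macrophage-like curves overlap, with a long tail in both libraries.

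In EC-like cells, members were found together in the same cells. Among EC-like cells thinned to 2000 UMIs, the 43 DMSO cells with an Ifit1 UMI carried a mean of 8.19 UMIs of the members outside the Ifit family, and the 1915 cells without one carried 3.69. In MVC the 129 cells with Ifit1 carried 12.6 and the 1346 without carried 5.35. The MVC mean without Ifit1 was thus above the DMSO mean without it. Isg15 was found in 53.5% of DMSO cells with Ifit1 and in 19.3% of those without, and in 58.9% and 24.0% in MVC. Parp14 showed the same order, with 48.8% and 32.5% in DMSO and 63.6% and 39.3% in MVC. This did not hold for each member in each class. In macrophage-like cells Bst2 was found in 4.35% of DMSO cells with Ifit1 and 9.92% without, and in 6.90% and 12.6% in MVC. Gbp2 was found there in no cell with Ifit1 in either library. Genes outside the module were not compared in this way.

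FAP-like cells, the matrix-forming progenitors of the muscle interstitium, had a lower module level and a smaller difference, 646 and 839 CPM (1.30, 1.26 to 1.34). Of 32 members with enough UMIs, 7 were higher and 1 lower, where 10.7% of 12860 genes were higher and 2.76% lower. The median log2 ratio of all genes was 0.14 in this class, and counted against that median only 2 members were higher and 1 lower. The shares of all genes counted in that way are not given here. Gbp2 had most UMIs, at 66.8 and 104 CPM (1.55, 1.43 to 1.69). Ratios were highest for Cmpk2 (28 and 59 UMIs, 1.96, 1.23 to 3.20), Ddx60 (1.73, 1.40 to 2.16), Irgm1, which controls autophagy (1.61, 1.31 to 1.98), and Herc6 (1.58, 1.41 to 1.77). The Ifit family did not follow the pattern of EC-like cells, with 35.1 and 39.0 CPM summed (1.11, 0.979 to 1.26). Ifit2 had 278 and 286 UMIs (0.958, 0.809 to 1.13), and Irf7 had 75 and 70 (0.869, 0.618 to 1.22). Rsad2 was lower in MVC, with 116 and 76 UMIs (0.610, 0.451 to 0.822), although 37.1% and 40.8% of these lay in 3 cells. Its log2 ratio went from -0.71 to -1.49 with doublets removed. By cluster, the ratio was 1.51 in the cells led by Ifi205 and Ifi203, 1.46 in those led by Dnajb1 and Egr1, and between 1.12 and 1.22 in the other 3.

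Macrophage-like cells had the highest level and nearly the same in both libraries, 3450 and 3683 CPM (1.07, 1.03 to 1.10). The log2 ratio was 0.0943, and it was 0.0287 without the 3 cells with most module UMIs and -0.24 with classes from each cell's own markers. Of 23 members with enough UMIs, 9 were higher and 0 lower, where 8.03% of 7447 genes were higher and 6.97% lower. The members went both ways. Oasl1, the most counted member here, stood at 964 CPM in DMSO and 788 in MVC (0.818, 0.765 to 0.874). Isg15 stood at 247 and 204 CPM (0.827, 0.724 to 0.944), and Ifi27l2a at 264 and 227 (0.86, 0.757 to 0.977). Without the 3 cells with most Ifi27l2a in each library its ratio was 1.04 (0.897 to 1.2), and as the mean of each cell's own share the log2 ratio of Oasl1 was 0.0116 in place of -0.29. Ifih1 was higher at 626 and 726 CPM (1.16, 1.07 to 1.25), Bst2, the tetherin that holds budding virus, at 61.4 and 104.6 (1.70, 1.36 to 2.15), and Trim30a at 64.9 and 127 (1.96, 1.58 to 2.44). The highest ratios came from few UMIs, Ifit2 with 7 and 46 (6.36, 2.85 to 16.7), Usp18 with 15 and 36 (2.32), Ifit3 with 16 and 38 (2.30) and Ddx58 with 33 and 76 (2.23, 1.46 to 3.46). Of the Ifit2 UMIs, 85.7% in DMSO and 63.0% in MVC lay in 3 cells. The log2 ratio of Ifit2 went from 2.67 to 1.72 with doublets removed and to 4.05 without its 3 leading cells. That of Ifit3 went from 1.2 to -0.45 without its 3 leading cells.

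The level in these cells was carried by a minority of them. The 10% of macrophage-like cells with most module UMIs held 49.6% of the module UMIs in DMSO and 53.9% in MVC, whereas the deepest 10% of cells held 22.7% and 23.7% of all UMIs. At 2000 UMIs per cell the median was 3 module UMIs in both libraries, and the highest cell held 62 in DMSO and 117 in MVC. The macrophage marker genes stood at 8423 and 8441 CPM in the 2 libraries. Markers of EC (957 and 301 CPM) and of mast cells (1274 and 640 CPM) were also counted in this cluster and were lower in MVC, and their part in the result was not tested.

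MuSC-like cells, the stem cells of the muscle fibre, had the lowest module level of the 11 classes compared but one of the larger ratios. They stood at 412 CPM in DMSO (459 UMIs, 375 to 452) and 693 in MVC (1271 UMIs, 656 to 732), 1.68 (1.51 to 1.87). Only 8 members had 50 UMIs, and 5 of them were higher by the rule and 0 lower, where 7.4% of 6381 genes were higher and 8.29% lower. Gbp2 had most UMIs, at 113 and 147 CPM (1.30, 1.05 to 1.61). Parp14 went from 26.0 to 69.3 CPM (2.66, 1.76 to 4.13), Gbp7 from 10.8 to 24.0 (2.23, 1.16 to 4.63), Herc6 from 73.7 to 159 (2.16, 1.69 to 2.80) and Ifi35 from 16.2 to 32.7 (2.02, 1.18 to 3.64). The log2 ratio of Gbp7 went from 1.15 to 2.19 without its 3 leading cells. Ifih1 (0.925, 0.517 to 1.69) and Irf9 (1.29, 0.704 to 2.44) were not distinguishable between libraries at this depth. At least 1 module UMI was found in 44.0% of DMSO and 60.7% of MVC cells at 2000 UMIs, a difference of 16.8 points (6.44 to 26.6). In the same class the 33 genes of the dissociation response stood at 29567 and 45185 CPM (1.53). FAP markers in these cells stood at 174 and 716 CPM and myofibre markers at 1402 and 321. The part of these shifts in the module's difference was not tested.

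Tenocyte-like cells, the tendon fibroblasts, stood at 559 and 822 CPM (1.47, 1.40 to 1.55). Here 11 of 22 members were higher and 0 lower, where 8.3% of 9730 genes were higher and 4.55% lower. Ifit2 had most UMIs in this class and was lower in MVC, at 93.8 and 67.2 CPM (393 and 300 UMIs, 0.717, 0.615 to 0.835). The remaining members were not lower with an interval that left out 1. Rsad2 (12 and 60 UMIs, 4.69), Ifit1 (20 and 96, 4.51, 2.76 to 7.71), Ifi27l2a (28 and 90, 3.02, 1.96 to 4.79) and Ifih1 (29 and 82, 2.66, 1.72 to 4.21) had the highest ratios. The 12 DMSO UMIs of Rsad2 came from 1 cell. The log2 ratio of Rsad2 went from 2.23 to 1.44 with doublets removed and to 4.8 as the mean of each cell's own share. For Ifit1, 61.5% of the UMIs in MVC lay in 3 cells. Irf9 (1.08, 0.833 to 1.39) and Xaf1 (1.09, 0.688 to 1.72) were close to 1.

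Pericyte-like cells, the contractile cells around capillaries, stood at 762 and 1239 CPM (1.63, 1.5 to 1.76), with 8 of 17 members higher and 0 lower where 8.36% of 6918 genes were higher and 4.63% lower. Ifit1 (10 and 43 UMIs, 5.30, 2.62 to 11.8), Herc6 (43 and 104, 2.98, 2.07 to 4.36), Trim30a (35 and 74, 2.61, 1.72 to 4.01) and Rsad2 (87 and 157, 2.22) led. Parp14 was at 77.5 and 120 CPM (1.55, 1.21 to 2.0). Ifit2 (0.870, 0.494 to 1.51), Irf9 (0.894, 0.569 to 1.39) and Gbp2 (1.01, 0.583 to 1.73) were not distinguishable. In MVC, 61.1% of the Rsad2 and 62.8% of the Ifit1 UMIs came from 3 cells. With doublets removed the log2 ratio of Rsad2 went from 1.15 to -0.0333 and that of Trim30a from 1.38 to 3.53. Relative to the median gene of the class 5 members were higher, a count for which the share of all genes is not given here. With classes from each cell's own markers the log2 ratio of the summed level went from 0.70 to 0.27. Of the pericyte-like cells, 15.8% in DMSO and 12.5% in MVC were scored as doublets, the largest share among the classes compared in either library.

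The smaller classes rested on fewer cells. T/NK-like cells (180 and 51) stood at 816 and 1330 CPM (1.63, 1.47 to 1.81), with 6 of 11 members higher and 1 lower, where 11.7% of 5372 genes were higher and 7.56% lower. Isg15 (29.0 and 93.6 CPM, 3.23, 2.02 to 5.14), Bst2 (2.08), Gbp7 (2.01) and Parp14 (1.98) had the highest ratios, Ifi27l2a had most UMIs (1.26, 0.917 to 1.72), and Gbp2 was lower with 48 and 4 UMIs (0.347, 0.0907 to 0.946). Ddx58 (0.780) and Igtp (0.872) had intervals that held 1. Doublet scores marked 1.11% of the DMSO and 11.8% of the MVC cells of this class, and with doublets removed the log2 ratio of the summed level went from 0.70 to 0.40.

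Lymphatic EC-like cells (76 and 76) stood at 1155 and 1834 CPM (1.59, 1.44 to 1.75), yet 3 cells held 52.5% of the module UMIs in MVC. Here 4 of 12 members were higher and 2 lower, where 7.38% of 3754 genes were higher and 10.1% lower. Rsad2 had 1 UMI in DMSO and 191 in MVC (268, 47.6 to 10655), of which 95.3% came from 3 cells. All 59 Ifit1 UMIs of MVC (5 in DMSO) lay in 2 cells. Herc6 (2.23, 1.37 to 3.68) and Isg15 (1.71, 1.20 to 2.46) were also higher, Gbp2 was at 0.953, and Samd9l (41 and 14 UMIs, 0.480) and Trim30a (48 and 19, 0.556) were lower. Without their 3 leading cells these were 0.625 (0.235 to 1.51) and 0.558 (0.249 to 1.17), with intervals that held 1. Without the 3 cells with most module UMIs in each library, the log2 ratio of the summed level went from 0.67 to 0.04.

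Perineurial-like cells (66 and 57), which sheathe the nerve fascicles, had the largest ratio of the 11 classes, 595 and 1372 CPM (2.30, 2.01 to 2.64). In this class 3 cells held 18.6% of the module UMIs in DMSO and 28.2% in MVC. Doublet scores marked 1.52% and 7.02% of its cells, and the median depth was 8195 and 5758 UMIs. The 5 members with enough UMIs in perineurial-like cells were Gbp2 (51 and 116 UMIs, 3.38), Ifit2 (9 and 51, 8.41), Gbp7 (10 and 40, 5.94), Parp14 (26 and 34, 1.94) and Stat2 (35 and 28, 1.19, 0.696 to 2.01). By the rule 4 of these 5 were higher and 0 lower, where 15.3% of 3480 genes were higher and 11.3% lower. Without its 3 leading cells the ratio of Ifit2 was 4.48 (1.36 to 19.0). B cell-like cells (204 and 96) stood at 569 and 726 CPM (1.28, 1.12 to 1.45), a log2 ratio of 0.35 that was 0.13 without the 3 cells with most module UMIs. Of 7 members with enough UMIs, Parp14 was the single one called higher (1.91, 1.32 to 2.78) and 0 were lower, where 8.45% of 5127 genes were higher and 5.68% lower. In this class Samd9l, a growth suppressor, was the most counted (143 and 53 UMIs, 0.771, 0.552 to 1.06). Bst2 (1.51), Ifi27l2a (1.5), Trim30a (1.01), Ddx58 (0.924) and Ifi35 (0.907) made up the rest of its extremes. In Schwann-like cells (96 and 123) 1 of 9 members was higher and 0 lower, where 9.48% of 4485 genes were higher and 6% lower. The median log2 ratio was -0.10 over these members and 0.07 over all genes. Relative to the median gene of the class 0 members were higher and 1 lower, without a share of all genes beside it. The highest member was Parp14 (1.54, 1.08 to 2.21), followed by Herc6 (1.26), Gbp2 (1.17) and Ifih1 (1.01). The lowest were Irgm1 (0.646, 0.399 to 1.04), Stat2 (0.689) and Irf9 (0.723). Smooth muscle cell-like cells, with 62 DMSO and 48 MVC cells, were below the cell minimum, and their summed level was 465 and 1379 CPM.

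Across the classes, Parp14 had enough UMIs in all 11 and was above 1 in all 11, with an interval leaving out 1 in 10. Gbp7 was above 1 in 9 of 10 classes (8 with an interval above 1), Herc6 in 9 of 9 (6), and Bst2 in 8 of 9 (5). Of all genes, between 45.5% (MuSC-like) and 67.5% (FAP-like) had a ratio above 1 in a class. The share of all genes with an interval leaving out 1 in a class is not given here. Irf9, with enough UMIs in 7 classes, had an interval above 1 in 1. The members with an interval below 1 in some class were Ifit2, Oasl1, Gbp2, Isg15, Rsad2, Ifi27l2a, Trim30a and Samd9l, each in 1 class.

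**Figure D4:**
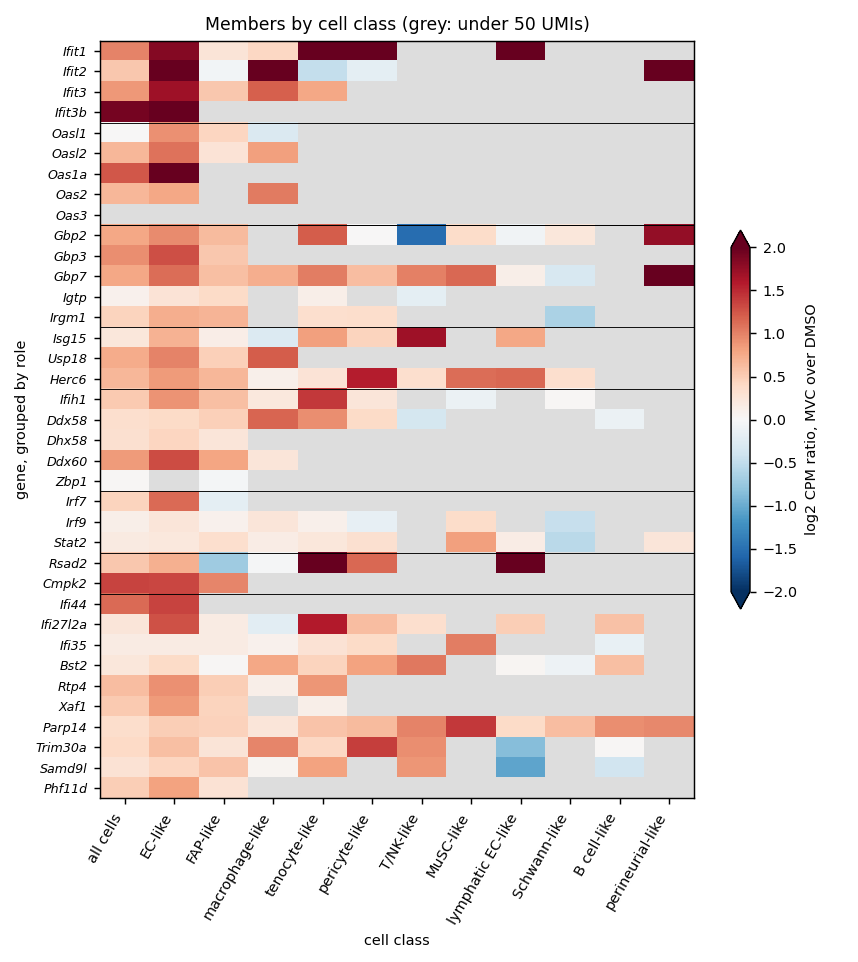
Log2 CPM ratio, MVC over DMSO, of each member (rows, grouped by role between black lines) in all cells and the 11 classes (columns), red for higher and blue for lower in MVC, with values beyond 2 shown in the end colours and grey for under 50 UMIs in that class. The EC-like column is red throughout its tested genes, and blue cells are scattered over other columns.

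The genes around the module give its place in the pathway. Of the interferon genes, Ifnb1, which codes for interferon beta, was counted almost only in macrophage-like cells. They held all 46 Ifnb1 UMIs of the DMSO library, in 11 cells, and 20 of the 21 of the MVC library, in 6 cells (0.421, 0.236 to 0.726). Of these UMIs, 29 in DMSO and 17 in MVC lay in 3 cells. Ifng, which codes for interferon gamma, had 21 of its 23 DMSO UMIs and 39 of its 42 MVC UMIs in T/NK-like cells. In that class the CPM ratio was 7.72 (4.43 to 13.8), with 34 of the 39 MVC UMIs in 3 cells. No other ligand gene of the 21 reached 50 UMIs.

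Over all cells the receptor and relay genes differed little. Of 6 receptor genes, 5 kinases and STATs, 5 further interferon regulatory factors and 10 upstream sensors and adaptors with enough UMIs over all cells, none passed the 1.5-fold rule in either direction. The shares of all genes were 7.09% higher and 5.18% lower. The receptor gene with most UMIs, Ifngr1, was at 162 and 133 CPM (0.819), while Ifnlr1 was at 1.24 (0.731 to 2.12). Stat3 (1.02), Tyk2 (1.14) and Jak1 (0.967) bounded the relay, Irf1 (1.11), Irf3 (1.29) and Irf8 (0.881) the factors, and Tbk1 (1.01), Tlr3 (1.33) and Myd88 (0.821) the adaptors. Among the 6 negative regulators with enough UMIs over all cells, none passed in either direction, Socs3, an inhibitor of the kinases, being lowest at 493 and 342 CPM (0.692) and Nlrc5 highest (1.25). By class, 1 of 5 kinases and STATs was higher in EC-like cells, where 8.98% of all genes were. In FAP-like cells 2 of 5 factors and 1 of 9 sensors and adaptors were higher (10.7%). In macrophage-like cells 1 of 5 kinases and STATs was higher and 2 of 8 sensors and adaptors lower (8.03% and 6.97%). In T/NK-like cells 1 of 5 receptors, 2 of 4 kinases and STATs and 1 of 3 factors were higher (11.7%). No other receptor or relay gene passed in these classes.

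Of the other interferon-induced genes, 3 of 36 were higher and 3 lower over all cells, near the 7.09% and 5.18% of all genes, Slfn8 highest (1.82, 1.58 to 2.11) and Ifitm1 lowest (0.36), with the most counted, Ifitm3, at 746 and 699 CPM (0.937). Of the genes that answer mainly to interferon gamma, 4 of 17 were higher and 0 lower, against the same shares. Cxcl9, a chemokine for T cells, was highest with 808 and 2057 UMIs (2.78, 2.56 to 3.02), Iigp1 had most UMIs (1.09), and Cd274, which codes for PD-L1, was lowest (1.0, 0.941 to 1.07). In EC-like cells 8 of 32 other induced genes and 9 of 16 gamma-preferred genes were higher, with 0 lower in each, where 8.98% of all genes were higher and 3.43% lower. The gamma-preferred genes summed to 1513 and 2404 CPM there (1.59, 1.56 to 1.62), which is close to the ratio of the module in the same cells, and the 38 other induced genes summed to 5169 and 5277 (1.02). Whether type I interferon or interferon gamma had a part in the difference of the module was not tested.

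**Figure D5:**
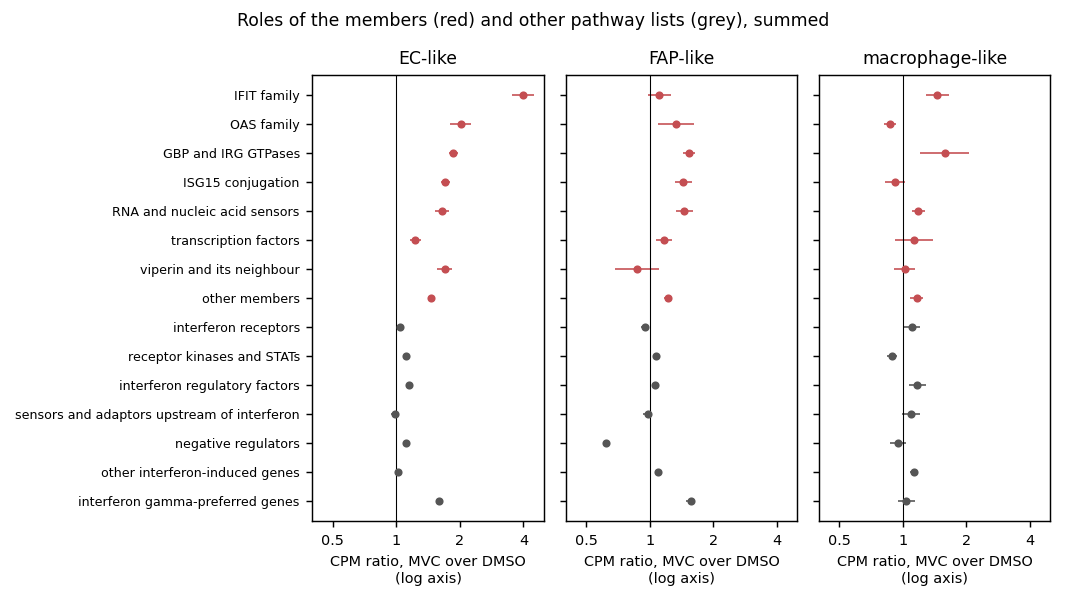
CPM ratio, MVC over DMSO (log axis), of the summed genes of each role within the module (red) and of each further pathway list (grey) in EC-like, FAP-like and macrophage-like cells, with 95% counting intervals. In EC-like cells every red point lies right of 1, led by the Ifit family at 3.97, and of the grey points the gamma-preferred list lies farthest right.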

How the data were processed

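Mononuclear cells of mouse limb muscle were profiled with 10x Genomics in 2 libraries, DMSO and MVC. The authors deposited raw UMI counts per gene and barcode, made with Cell Ranger 7.0.0 on mm10 per the labels, which also name Seurat 5.0.1. The kit chemistry and whether intronic reads were counted are not given in the sources used here. The members and lists were chosen with earlier results of these data known.

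Barcodes were dropped under 500 genes or over 10% mitochondrial UMIs, following the study's methods. Counts were scaled to 10000 UMIs per cell, and 1981 of 2000 variable genes, without the module and pathway genes, gave 30 components, a graph of 20 neighbours and 26 Leiden clusters (resolution 1, leidenalg 0.10.2, scanpy 1.11.5, Python 3.11.15). A cluster was named X-like where at least 3 markers of 1 class were raised (log2 fold of 1 or more, in 20% of cells or more) and the mean marker log2 fold led the next such class by 1. A low-UMI cluster and a mural cluster stayed unnamed. Doublets were scored against 2 simulated doublets per cell and 50 neighbours, marking 236 DMSO and 238 MVC cells, which were kept in the main values and left out in an alternative.

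Values are CPM of UMIs summed per class and library, with exact Poisson intervals, exact conditional intervals for ratios, Clopper-Pearson intervals for shares and Newcombe intervals for their differences (scipy 1.17.1), all at 95% and for counting error only. UMI levels were not corrected for gene length. With 1 library per group no test was run. The ratio and call code was tested on simulated data. Genes named were, over all cells, the 5 members with most UMIs and the 5 highest and 5 lowest ratios among members with at least 50 UMIs, and, per class, the member with most UMIs, the 4 highest and the 3 lowest. Of each pathway list, the gene with most UMIs and the highest and lowest ratio were named. Further members, the members called in a role, Ifng and the marker lists were named after their values were seen. Positions are from GENCODE M21 (GRCm38, the build of the counts), and promoters from RefSeq. Alternatives changed the cell filter, doublets, scaling, depth, cells with most module UMIs, leading member, class definition, makeup, fold and UMI minimum. A result that needs a withheld item is not reported here.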

Additional observations from a re-analysis of the deposited data

Results flagged for a closer look

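With 1 library per group no sample could be compared with others of its group. Members were instead set apart where their counting intervals lay on opposite sides of 1 in a pair of classes, also without the 3 cells with most UMIs of the gene in each class and library. This compares single libraries, and the difference between classes was not tested. The share of all genes that meet the same rule is not given here, so these members are not set against a background. Ifit2 had an MVC over DMSO ratio of 0.717 in tenocyte-like cells and 5.34 in EC-like cells. Oasl1 had 0.818 in macrophage-like and 1.89 in EC-like cells, where 49.5% of its DMSO UMIs lay in 3 cells and the ratio without the leading cells was 3.09 (2.24 to 4.3). Isg15 had 0.827 in macrophage-like and 1.61 in EC-like cells. Rsad2 had 0.610 in FAP-like and 1.64 in EC-like cells. Gbp2 had 0.347 in T/NK-like cells, from 4 MVC UMIs, and 1.94 in EC-like cells. Without the leading cells the T/NK-like ratio was 0.134 (0.00329 to 0.80). With 4 MVC UMIs, leaving out 3 cells removes most of the count, so it is no check of this ratio.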

How the results depend on the processing

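The module was higher in MVC in 11 of 11 classes in the main values, and in 10 as the mean of each cell's own share, where Schwann-like cells turned to -0.0232 on the log2 scale, and in 10 with classes from each cell's own markers. On the log2 scale the difference over all cells was 0.43 and became 0.37 with scaling by the median gene ratio, 0.52 as the mean of each cell's own share, 0.49 with cells thinned to 2000 UMIs, 0.41 without the 3 cells with most module UMIs per class and library, 0.49 with equal class weights and 0.52 with the DMSO makeup. In EC-like cells 0.68 became 0.62 with the median scaling, 0.71 without Parp14 and 0.72 with classes from each cell's own markers. In FAP-like cells 0.38 became 0.24 with the median scaling. In macrophage-like cells 0.09 became 0.0434 with doublets removed, 0.22 as the mean share, 0.19 with thinned cells and 0.0287 without the 3 cells, and it turned to -0.24 with classes from own markers, where the cause was not tested. At 2-fold the members higher were 4 over all cells (15 at 1.5-fold), 13 in EC-like (26), 0 in FAP-like (7) and 5 in macrophage-like cells (9). With the median scaling 2 were higher in FAP-like cells, and with a minimum of 100 UMIs 5 in macrophage-like cells. The shares of all genes at these changed settings are not given here. These counts are therefore not set against a background. The share of cells with a module UMI differed by 5.85 points in EC-like cells at 2000 UMIs, by 1.18 with all UMIs and by 9.32 at 1000, and in FAP-like cells by 4.86, 0.0774 and 9.6. Single members turned in macrophage-like cells, Oasl1 to 0.0116 and Ifi27l2a to 0.13 as the mean share, Ifi27l2a to 0.0558 and Ifit3 to -0.45 without the 3 cells with most of its UMIs, and Rsad2 to -0.0333 in pericyte-like cells with doublets removed. No paired analysis was possible because each group holds 1 library. The depth of the smaller classes left most members under 50 UMIs there.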
